A study of Mus musculus with 8 samples.

Results

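The myosin heavy chain genes *Myh6*, *Myh7*, *Myh9*, *Myh10*, *Myh11* and *Myh14* are described here in the ovaries of juvenile mice with and without ghrelin-O-acyltransferase (GOAT), the enzyme encoded by *Mboat4* that attaches an acyl group to the hormone ghrelin. They are 6 of the 45583 gene symbols of the count table, found by symbol, and all 6 passed the filter on low counts. The genes were selected on the WT against GOAT KO contrast of these same libraries, in which *Myh6* stood out, so every difference between the groups in a member is given as a description with no p-value, and calls of members are printed once, beside the share of all genes called, with nothing read from them. The mice were females of the C57/Bl6 strain, 3 weeks old, and the GOAT KO animals lacked the enzyme in the whole body from conception. WT and GOAT KO littermates came from crosses of heterozygous parents. One ovary library was sequenced for each of 4 WT mice (animals 1118, 1119, 1120 and 1121) and 4 GOAT KO mice (animals 1139, 1140, 1141 and 1146).

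Myosin heavy chains are the motor subunits of class II myosins. A pair of heavy chains joins with essential and regulatory light chains, and the long tails of many such molecules bundle into filaments that pull on actin. *Myh6* and *Myh7* encode the alpha and beta chains of cardiac muscle, and *Myh7* is also the chain of slow skeletal fibres. *Myh11* encodes the smooth muscle chain, which in the ovary is known from the walls of blood vessels and the theca and stroma. *Myh9*, *Myh10* and *Myh14* encode the nonmuscle chains IIA, IIB and IIC, which most cells use to divide, move and keep tension in their cortex.

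The libraries held 16147216 to 19481798 gene counts each. *Mboat4*, the deleted gene, had 1, 1, 1 and 3 counts in the libraries labelled WT and 5, 7, 7 and 8 in those labelled GOAT KO, which goes against the labels. Which part of the gene these few reads cover was not analysed here, and "WT" and "GOAT KO" below mean the libraries so labelled. On the leading axis of a multidimensional scaling plot GOAT KO 1139 stood at 1.21 and the other libraries between -0.47 and 0.17, and GOAT KO 1139 held 1616 counts of the fat cell gene *Adipoq* against 5 to 49 in the others. Library WT 1120 held 1184 counts of the aromatase gene *Cyp19a1*, against 91 to 178 in the other WT libraries. Values without these 2 libraries are given beside the members and wherever a call changes. Ovary markers were abundant in every library, with 49922 to 77175 counts of *Inha*, a subunit of inhibin.

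*Myh6* and *Myh7* lie next to each other on the minus strand of chromosome 14 (GRCm38, GENCODE M21 annotation), at chr14:54941921-54966927 and chr14:54970684-54994626. They are near copies, and the reads were 50 bases long. Of the 6064 windows of 50 bases in the *Myh6-201* transcript, 1373 (22.6%) occur letter for letter in *Myh7*, and none occurs in the other 4 members. Reads from such windows cannot be placed by sequence, so the sequence at each exon junction decides how well a spliced read tells the genes apart. The 50 bases around 5 junctions of *Myh6*, 25 from each of the joined exons, are shown with the best match in *Myh7*, which in each case lies on an exon junction of *Myh7*. Capitals mark the positions at which the letters of *Myh6* and *Myh7* differ, and all 5 are exonic coding sequence. The junctions are the 4 with the most reads in *Myh6* and the most read junction among its first 19 introns.
*Myh6* intron 35: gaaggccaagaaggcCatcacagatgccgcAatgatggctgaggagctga
*Myh7* intron 37: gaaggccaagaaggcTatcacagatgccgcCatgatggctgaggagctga
*Myh6* intron 36: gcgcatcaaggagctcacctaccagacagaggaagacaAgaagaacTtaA
*Myh7* intron 38: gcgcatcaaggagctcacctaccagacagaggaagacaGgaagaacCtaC
*Myh6* intron 30: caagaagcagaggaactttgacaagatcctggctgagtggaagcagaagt
*Myh7* intron 32: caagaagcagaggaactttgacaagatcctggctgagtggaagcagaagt
*Myh6* intron 27: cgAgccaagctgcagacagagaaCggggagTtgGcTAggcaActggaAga
*Myh7* intron 29: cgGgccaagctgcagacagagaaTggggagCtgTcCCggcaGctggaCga
*Myh6* intron 9: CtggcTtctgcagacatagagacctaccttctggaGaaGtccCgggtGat
*Myh7* intron 10: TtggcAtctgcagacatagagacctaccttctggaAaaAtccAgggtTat
The *Myh6* introns named here are chr14:54944554-54944660 (35), chr14:54943244-54944277 (36), chr14:54948458-54948611 (30), chr14:54949964-54950051 (27) and chr14:54961828-54962053 (9). The windows at introns 35 and 36 differ at 2 and 3 positions, those at introns 27 and 9 at 8 and 6, and those at intron 30 at 0.

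*Myh6*, the alpha cardiac chain, was lower in the libraries labelled GOAT KO. It had 257, 339, 105 and 282 counts in the WT libraries 1118, 1119, 1120 and 1121. The GOAT KO libraries 1139, 1140, 1141 and 1146 had 32, 70, 65 and 78. Every GOAT KO library lay under every WT library, and the nearest libraries of the groups were WT 1120 and GOAT KO 1146. Scaled to counts per 1000000 with TMM factors (CPM), the level was 13.96 ± 5.67 in WT and 3.51 ± 1.18 in GOAT KO (SD, n = 4 each), so that the WT mean was 3.98 times the GOAT KO mean. The log2 fold change from the edgeR fit was -1.99 (SE 0.35), the lowest of the 16601 genes in the fit. Without WT 1120 and GOAT KO 1139 it was -2.05, and without any 1 library it lay between -2.25 and -1.79. In whole ovaries, fewer cells of a type and less RNA per cell cannot be told apart.

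**Figure D1:**
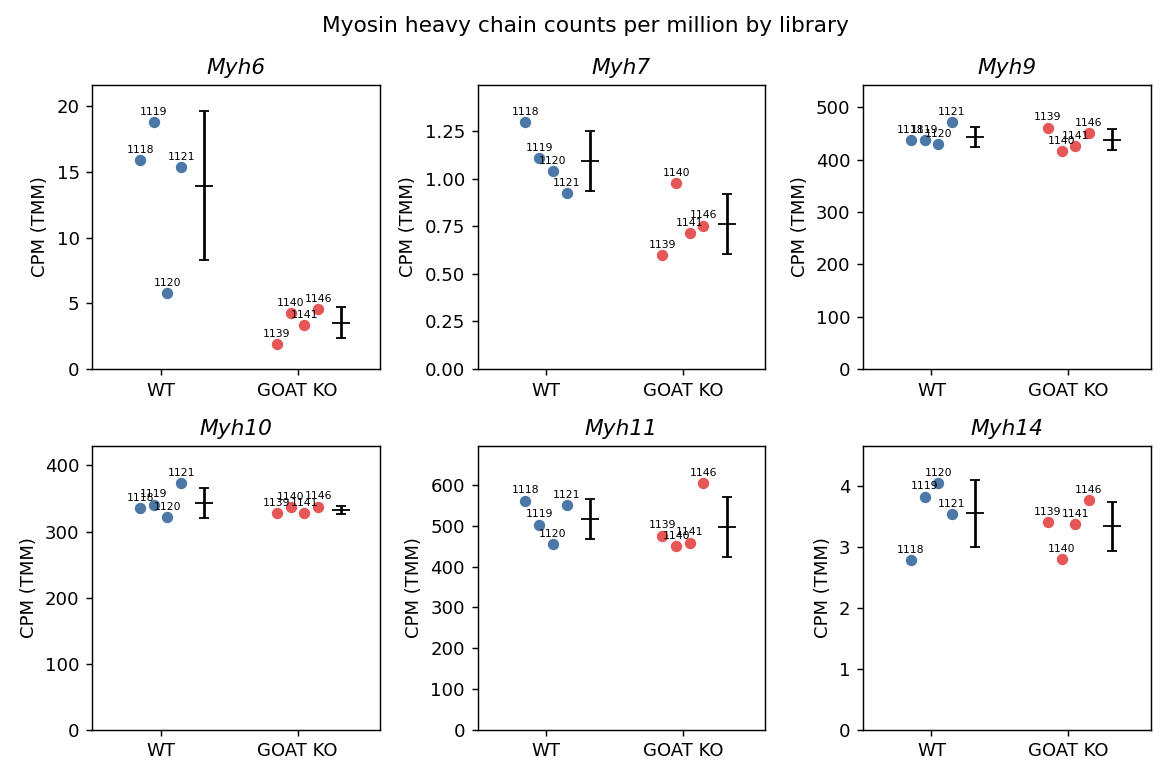
CPM (TMM scaled, vertical axes from 0) of the 6 myosin heavy chains in the 4 WT (blue) and 4 GOAT KO (red) libraries, each point labelled with its animal number, with mean and SD in black. For *Myh6* the WT libraries lie between 5.76 and 18.8 and the GOAT KO libraries between 1.91 and 4.53, while the points of the other 5 genes overlap between the groups.

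Reads that span an intron show spliced message rather than reads from within 1 exon. *Myh6* had 69, 79, 21 and 72 reads across its annotated introns in the WT libraries. The GOAT KO libraries had 2, 7, 12 and 12. The groups did not overlap in this measure either, which comes from the same libraries and adds no separate test. The share of all genes without overlap in junction reads was not computed. Divided by the gene counts of the library in units of 1000000, the level was 3.43 ± 1.52 in WT and 0.464 ± 0.256 in GOAT KO (SD, n = 4 each), with a log2 ratio of -2.88. The log2 fold change of the gene counts was -1.99, and the part of low depth in the distance between these values was not tested. The WT library with the fewest spliced reads was again 1120, at 1.16 on this scale against 3.90 to 4.37 in the other WT libraries.

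The reads were spread along the gene. Of the 38 introns of *Myh6-201*, 27 had a read in at least 1 WT library, 14 in at least 1 GOAT KO library and 29 in any library. A single library covered 8 to 19 introns in WT and 1 to 7 in GOAT KO. Coverage leaned to the 3′ end: introns 20 to 38 held 79.5% of the WT and 66.7% of the GOAT KO reads on these 38 introns. The 38 introns leave out 2 reads of WT 1118 on an alternative last junction of the *Myh6-207* transcript, which are in the totals above. In *Myh9*, *Myh10* and *Myh11*, the corresponding share of introns 21 to 40 over all libraries was 60.7%, 64.9% and 65.3%. Introns 1 and 2 of *Myh6* had 0 reads in all 8 libraries. A count of 0 at 1 intron is weak evidence in these files, since intron 35 of the abundant *Myh9* also had 0 reads in all 8 libraries while its neighbours, introns 34 and 36, had 74 to 154 in each library.

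**Figure D2:**
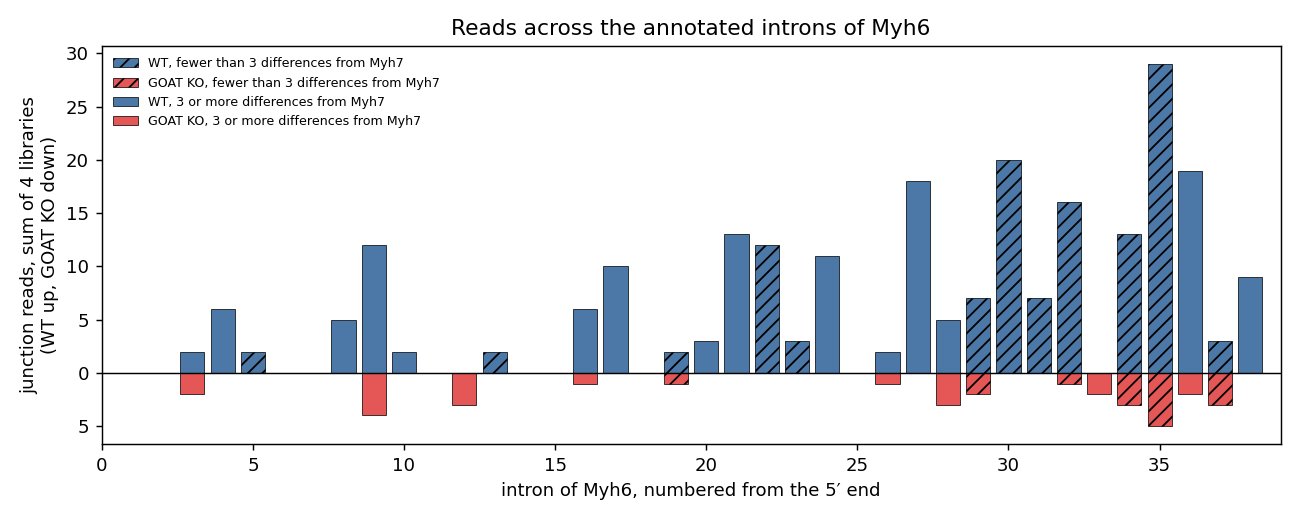
Junction reads at each of the 38 introns of *Myh6*, numbered from the 5′ end, summed over 4 WT libraries (blue, upward) and 4 GOAT KO libraries (red, downward); hatched bars are introns whose flanking exons differ from *Myh7* at fewer than 3 of 50 bases. Intron 35 has the most reads, 29 in WT and 5 in GOAT KO, and introns with clear differences from *Myh7*, such as 9 and 27, are read too.

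Junctions whose windows differ more between *Myh6* and *Myh7* were read in both groups. The 23 introns of *Myh6* with 3 or more differences from *Myh7* had 31, 43, 10 and 39 reads in the WT libraries and 0, 2, 7 and 9 in the GOAT KO libraries. That made 123 reads against 18. The 15 introns with fewer than 3 differences had 116 reads in WT and 15 in GOAT KO. Intron 27, whose window has 8 differences (the sequences above), had 18 reads in WT and 0 in GOAT KO, and intron 9, with 6 differences, had 12 and 4. A read that crosses a junction off centre can miss some of the differences, so this rule does not cleanly separate the genes. Introns 21, 26 and 36, each with 3 or more differences, also had reads that join *Myh7* to *Myh6*, described below.

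*Myh7*, the beta cardiac chain, was scarce. It had 21, 20, 19 and 17 counts in WT and 10, 16, 14 and 13 in GOAT KO. On the CPM scale the highest GOAT KO library, 1140, lay above the lowest WT library, 1121 (0.977 against 0.926), so the groups overlapped. The means were 1.09 ± 0.157 CPM for WT and 0.761 ± 0.158 in GOAT KO (SD, n = 4 each), with a log2 fold change of -0.52 (SE 0.23). The log2 fold change was -0.45 without WT 1120 and GOAT KO 1139.

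The few spliced reads placed on *Myh7* lay mostly where the genes share their sequence. Of its 60 junction reads, 49 were in WT and 11 in GOAT KO libraries. The 15 introns with fewer than 3 differences from *Myh6* held 41 and 9 of them, and the 25 introns with 3 or more differences held 8 and 2. Of the junction pairs with identical windows, *Myh6* intron 30 and *Myh7* intron 32 had the most reads, 20 for each gene, in the same 4 WT libraries for both. The other identical pairs did not all match: *Myh6* intron 34 had 16 reads and *Myh7* intron 36 had 10, with GOAT KO reads in both. A further 12 junctions ran from an exon end of *Myh7* to an exon start of *Myh6*, with 4, 17, 5 and 15 reads in the WT libraries and 0, 6, 0 and 1 in the GOAT KO libraries. All 12 have both ends at annotated exon ends. Each runs from the start of a *Myh7* intron to the end of the *Myh6* intron that matches it by sequence, such as *Myh7* intron 36 and *Myh6* intron 34. Whether such reads come from a joined transcript or from reads that align to either gene was not tested, and the counts and junction reads of *Myh7* are uncertain for the same reason. *Mhrt*, a long noncoding RNA that overlaps *Myh7* on the opposite strand, had 0 to 3 counts in each library.

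The nonmuscle chains IIA and IIB were abundant, and their group means differed by less than the SD of the WT libraries. *Myh9*, at chr15:77760587-77842175, had 7062, 7880, 7842 and 8673 counts in WT and 7726, 6825, 8335 and 7763 in GOAT KO. Its level was 444 ± 19.1 CPM for WT and 439 ± 20.9 in GOAT KO (SD, n = 4 each), with a log2 fold change of -0.018 (SE 0.058). The value was -0.059 without WT 1120 and GOAT KO 1139, and its sign turned without WT 1121 or without GOAT KO 1140. *Myh10*, at chr11:68691559-68816632, had 5427, 6142, 5871 and 6866 counts in WT and 5480, 5525, 6422 and 5821 in GOAT KO. Its level was 343 ± 22.05 CPM for WT and 333 ± 5.57 in GOAT KO, with a log2 fold change of -0.044 (SE 0.058), or -0.067 without WT 1120 and GOAT KO 1139. Library WT 1121 was the highest of the 8 for both genes. Only 73 of the 7384 windows of 50 bases in *Myh9-201* (0.989%) occur in *Myh10*, so reads of these paralogs are rarely ambiguous.

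*Myh14*, the nonmuscle chain IIC at chr7:44605803-44670843, was a minor member. It had 45, 69, 74 and 65 counts in WT and 57, 46, 66 and 65 in GOAT KO. Its level was 3.55 ± 0.554 CPM for WT and 3.34 ± 0.398 in GOAT KO (SD, n = 4 each), with a log2 fold change of -0.091 (SE 0.16), or -0.031 without WT 1120 and GOAT KO 1139. The groups lay on top of each other.

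*Myh11*, the smooth muscle chain at chr16:14194535-14291372, had the most reads of the 6 genes. It had 9085, 9064, 8291 and 10119 counts in WT and 7966, 7366, 8975 and 10439 in GOAT KO. Its level was 518 ± 49.3 CPM for WT and 498 ± 73.0 in GOAT KO (SD, n = 4 each), with a log2 fold change of -0.057 (SE 0.10), or -0.095 without WT 1120 and GOAT KO 1139 and -0.17 without GOAT KO 1146. GOAT KO 1146 was the highest of the 8 libraries, at 606 CPM, and the other GOAT KO libraries lay at 450 to 476 CPM.

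By the call rule of the study (p under 0.05 before adjustment, and a log2 fold change beyond 0.5 in either direction), 2 of the 6 members, *Myh6* and *Myh7*, were called, both lower in GOAT KO. The *Myh7* call was lost with DESeq2, without the filter on low counts, without WT 1120 and GOAT KO 1139 together, and without any 1 of WT 1118, 1119 and 1120 and GOAT KO 1139, 1141 and 1146. Among all 16601 genes in the fit, 278 (1.67%) were called in either direction and 119 (0.717%) were called lower. The groups did not overlap in CPM for 1 of the 6 members, *Myh6*, and for 2.92% of all genes in the fit. Since the members were chosen on this contrast, nothing is read from these counts of members. At a Benjamini-Hochberg adjusted p under 0.05, edgeR called 4 of the 16601 genes.

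Per kilobase of annotated exon, *Myh11*, *Myh9* and *Myh10* were far above *Myh6*, *Myh14* and *Myh7*. *Myh11* stood at 66.8 ± 7.72 CPM per kb (SD over 8 libraries), *Myh9* at 34.1 ± 1.45 and *Myh10* at 32.3 ± 1.52. *Myh6* stood at 1.30 ± 1.00, *Myh14* at 0.474 ± 0.0634 and *Myh7* at 0.108 ± 0.0267. The ranges of *Myh9* and *Myh10* overlapped, although *Myh9* was the higher of the pair in 7 of 8 libraries. *Myh11* was above *Myh9* in 8 of 8 libraries, with ratios of 1.75 to 2.29. These distances depend on the length used: per kb of the longest coding transcript the means were 77.5 for *Myh11*, 59.4 for *Myh9* and 43.4 for *Myh10*.

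*Myh6* was above *Myh14* in 7 of 8 libraries, all but GOAT KO 1139, and the distance between them was larger in WT. In WT its level was 2.08 ± 0.844 CPM per kb, 4.25 times that of *Myh14*. In GOAT KO it was 0.522 ± 0.176, 1.14 times that of *Myh14*, a difference within the spread of the libraries. As a share of the summed level of the 6 genes per kb, *Myh6* made up 0.218% to 2.06% across libraries and *Myh11* 47.4% to 53.8%.

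**Figure D3:**
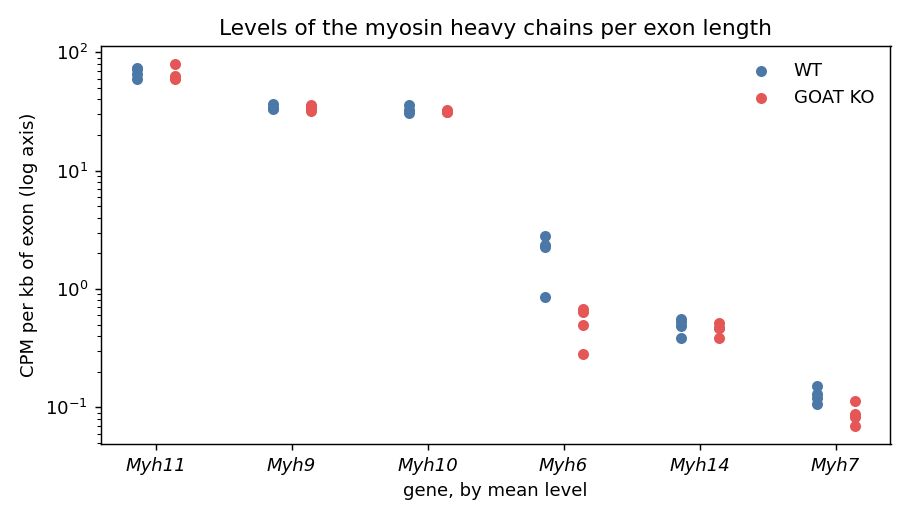
Level of each myosin heavy chain in CPM per kb of annotated exon (log axis), ordered by mean, with 4 WT (blue) and 4 GOAT KO (red) libraries as points. The 3 abundant genes lie between 30.8 and 79.7, *Myh6* between 0.284 and 2.80 and *Myh7* between 0.0694 and 0.151.

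Spliced reads in proportion to gene counts put *Myh6* of WT ovaries beside the abundant members. Over all libraries, *Myh9* had 25.9, *Myh10* 27.5 and *Myh11* 26.7 junction reads for every 100 gene counts. *Myh6* had 24.5 in WT (241 reads on 983 counts, exact Poisson 95% interval 21.5 to 27.8). In GOAT KO it had 13.5 (33 reads on 245 counts, 9.27 to 18.9), which was close to the 14.99 of *Myh14*. *Myh14* is scarce too, and the part of low depth in the lower ratio was not tested. The intervals cover counting error only. Library by library, *Myh6* ran from 20 to 26.8 in WT and from 6.25 to 18.5 in GOAT KO, without overlap. The share of all genes without overlap in this ratio was not computed, so nothing is read from it. *Myh7* had 63.6 in WT, above every other member, and 20.8 in GOAT KO, below the abundant members, and its shared junctions are described above.

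**Figure D4:**
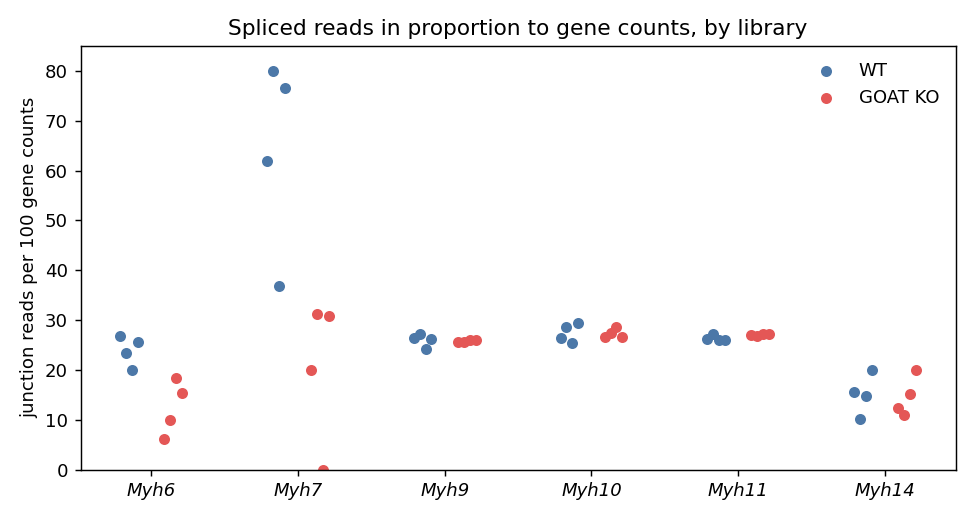
Junction reads per 100 gene counts for each myosin heavy chain, 1 point per library (WT blue, GOAT KO red). *Myh9*, *Myh10* and *Myh11* stay between 24.2 and 29.3 in every library, *Myh6* runs from 6.25 to 26.8 and the scarce *Myh7* from 0 to 80.

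Isoforms of the abundant members were read at exons that the annotation includes in some transcripts and skips in others. *Myh10* has 2 short coding inserts known from neurons, 1 in each of its head loops, and *Myh11* has a 21-base coding insert in the head (SM-B) that is known from fast phasic smooth muscle. They are shown because the junction reads over them were so one-sided, and each is given whole and on the strand of its gene.
*Myh10* 30-base exon, chr11:68745935-68745964, plus strand: caggaatcgcctaagcccgtgaaaccccag
*Myh11* 21-base exon, chr16:14248580-14248600, minus strand: caaggtccatcttttgcctac
The junction that skips the *Myh10* 30-base exon had 279 reads, 19 to 53 in each library, and the junctions into and out of the exon had 0. A count of 0 against 279 allows a share of up to 1.08%. The junction that skips the *Myh11* 21-base exon had 513 reads, 39 to 89 in each library. The exon itself had 4 reads on 1 of its 2 junctions, all in GOAT KO 1141, and 0 on the other.

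The second *Myh10* insert, 63 bases at chr11:68775365-68775427, was skipped by 146 reads in 6 of 8 libraries and entered by 0, which allows up to 2.05%. *Myh11* has a 39-base exon near its 3′ end (chr16:14198050-14198088) that separates the SM2 tail from the longer SM1 tail. It was skipped by 841 reads, 78 to 129 in each library, and entered by 0, which allows up to 0.357%. These limits cover counting error only and hold only as far as the junction files list every junction, as the empty *Myh9* intron 35 shows. No pair of alternative junctions in the 6 genes reached 20 reads in every library with a minor share of 5%, so no test of isoform use between the groups could be made. Across all genes 3337 alternative junctions did.

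The genes whose log2 CPM followed *Myh6* most closely over the 8 libraries, among 15457 genes with a mean of at least 1 CPM, were *RP23-300K5.1* (Pearson r = 0.96), *Mettl3* (0.947), *Rgs16* (0.936), *Btbd1* (0.936) and *Gm38057* (0.934). *Mettl3* encodes the methyltransferase that writes N6-methyladenosine on RNA, and *Rgs16* a regulator of G protein signalling. Their own log2 fold changes ran from -0.74 for *RP23-300K5.1*, at 1.39 CPM in WT and 0.831 in GOAT KO, to -0.12 for *Mettl3*, at 55.7 and 51.4, and *Rgs16* stood at 3.01 and 2.09. For *Myh11* the closest were *Apba1* (0.972), *Gulp1* (0.966), *Zfp53* (0.964), *Zfp507* (0.957) and *Tgfbr2* (0.95), the last a receptor for TGF-beta. These correlations rest on 8 libraries that include both groups and are descriptions. Between members, *Myh6* and *Myh7* had an r of 0.822, and they share sequence as described above.

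Light chains and the enzymes that act on myosin gave no called gene. Of 12 myosin light chain genes 7 passed the filter and 0 were called in either direction, with a median log2 fold change of -0.015. *Myl12a*, a regulatory light chain of nonmuscle myosin, stood at 275 CPM in WT and 272 in GOAT KO, and *Myl9*, its smooth muscle counterpart, at 256 and 266. Of 13 tested genes for the kinases and phosphatase of the light chains 0 were called, with a median of -0.019. *Mylk*, the light chain kinase, stood at 459 CPM in WT and 446 in GOAT KO, and *Ppp1cb*, the catalytic subunit of myosin phosphatase, at 315 and 314. The median over all genes in the fit was -0.00035. Of 4 tested genes that fold myosin or bind its filaments 0 were called, with a median of -0.072, and the chaperone *Hsp90ab1* stood at 2239 CPM in WT and 2161 in GOAT KO and *Hsp90aa1* at 104 and 94.0.

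The genes that mark heart muscle beside *Myh6* were mixed. Of 8 other sarcomeric myosin heavy chains only *Myh2* and *Myh7b* passed the filter, and 0 were called. *Myh7b* stood at 1.57 CPM in WT and 1.46 in GOAT KO, and *Myh2*, a fast skeletal chain, at 0.872 and 0.656. The heart light chains *Myl2*, *Myl3* and *Myl7* were nearly absent, with 0 to 2, 0 to 2 and 1 to 5 counts per library. *Myl4*, the atrial essential light chain, was present, with 76 to 112 counts per library, and stood at 5.42 CPM in WT and 5.25 in GOAT KO. *Nppa*, which encodes atrial natriuretic peptide, had 1 count in 1 library, and *Nppb*, *Sln*, *Myod1* and *Myog* had 0 in every library.

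Some other sarcomere genes were present, and the fit on all libraries called none of those tested. Of 26 cardiac and skeletal sarcomere genes 15 passed the filter and 0 were called, with a median log2 fold change of -0.026. *Actc1*, cardiac actin, passed at 0.712 CPM in WT and 0.680 in GOAT KO. Among those that did not pass were *Actn2*, at 0.144 and 0.302, and *Csrp3*, at 0.0139 and 0.0294. *Tnni3*, cardiac troponin I, was the most abundant, at 179 CPM in WT and 177 in GOAT KO, followed by *Neb*, nebulin, at 92.9 and 82.4. *Tnni1*, slow skeletal troponin I, was called lower without WT 1120 and GOAT KO 1139 (log2 fold change -0.59, against -0.36 with all libraries) and without GOAT KO 1139 alone (-0.56). *Tnnc1*, cardiac and slow troponin C, at 3.58 and 2.53 CPM (-0.50), was called lower without WT 1118 (-0.60), without WT 1119 (-0.57) and without the filter (-0.50), but stood at -0.15 without WT 1120 and GOAT KO 1139. Other members of the list went the other way. *Ttn*, titin, at 4.59 and 5.66 CPM (0.30), and *Nebl*, nebulette, at 2.09 and 2.41 (0.21), had higher GOAT KO means, and *Mybpc1*, slow myosin-binding protein C, which did not pass the filter, was called higher without it (1.34). All genes of this list named here but *Tnni3* and *Neb* were chosen after their values were seen. Of 15 cardiac and skeletal markers outside the sarcomere 6 passed the filter and 0 were called, with a median of 0.045. *Ryr2*, the calcium release channel of the heart, stood at 44.8 CPM in WT and 45.5 in GOAT KO, and *Casq2*, calsequestrin, at 6.65 and 6.50. The summed level of these markers ran from 43.2 to 66.4 CPM in WT and from 56.1 to 62.6 in GOAT KO, so the groups overlapped.

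Smooth muscle genes, like *Myh11*, gave no call. Of 12 tested contractile genes of smooth muscle 0 were called, with a median log2 fold change of 0.032, and their summed level ran from 2745 to 3276 CPM in WT and from 2844 to 3351 in GOAT KO. *Acta2*, smooth muscle actin, stood at 859 CPM in WT and 898 in GOAT KO, and *Tpm1*, a tropomyosin, at 693 in both. Of 12 tested transcription factors of muscle genes 0 were called, with a median of -0.044. *Gata4* stood at 269 CPM in WT and 259 in GOAT KO, and *Tead1* at 185 and 180. *Myocd*, the smooth and cardiac muscle coactivator of SRF, was singled out after its values were seen. It had 1156, 1098, 607 and 1113 counts in WT and 622, 871, 928 and 1121 in GOAT KO, with its lowest values in WT 1120 and GOAT KO 1139, the libraries with the least *Myh6* in their groups.

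**Figure D5:**
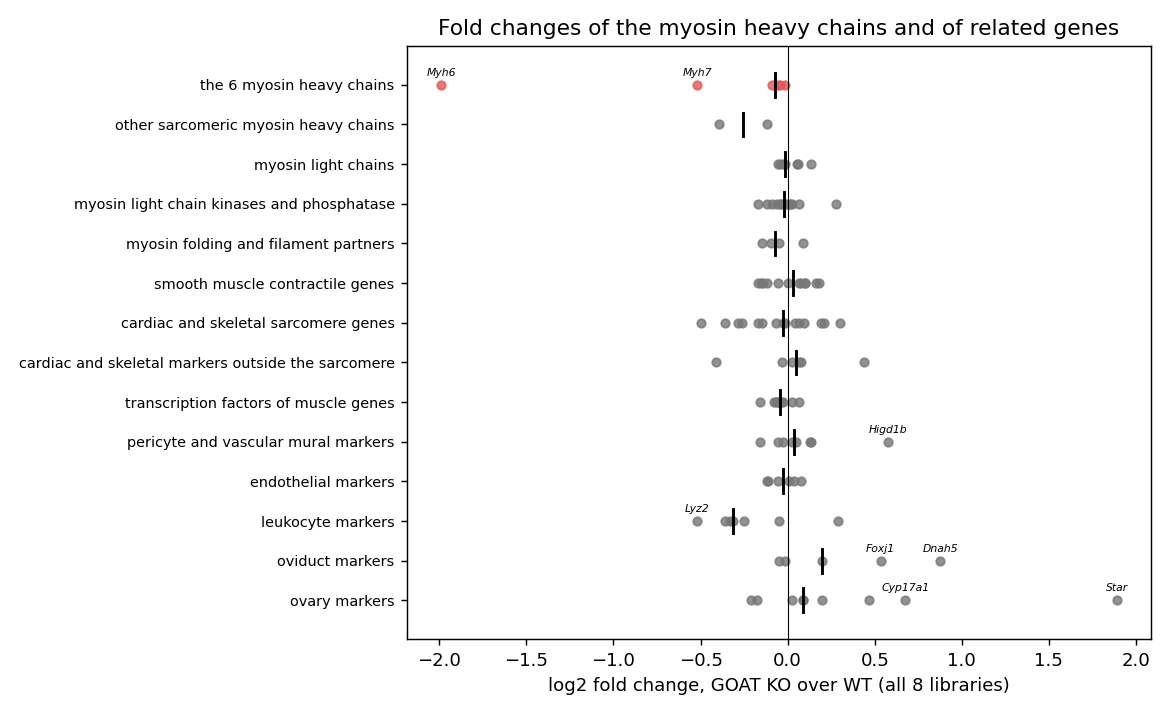
Log2 fold change, GOAT KO over WT, of the 6 myosin heavy chains (red) and of the tested genes of 13 lists of related genes and cell type markers (grey), with the median of each row as a black bar and genes beyond 0.5 in either direction named. *Myh6* lies at -1.99 and *Myh7* at -0.52, and every tested light chain gene lies between -0.058 and 0.13.

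Markers of other cell types were compared between the same libraries. Of 8 tested mural cell markers 0 were called (median log2 fold change 0.039), with *Pdgfrb* at 119 CPM in WT and 106 in GOAT KO and *Rgs5* at 76.2 and 83.8. Of 6 tested endothelial markers 0 were called (median -0.025), with *Cdh5* at 88.0 and 81.1 CPM and *Kdr* at 60.5 and 62.0. Of 5 tested oviduct markers 0 were called (median 0.20), with *Tubb4b* at 145 and 144 CPM and *Ovgp1* at 5.04 and 4.90. Other oviduct markers, chosen after their values were seen, had higher GOAT KO means, with *Dnah5* at 1.16 and 2.17 CPM, *Foxj1* at 0.864 and 1.29 and *Pax8*, which did not pass the filter, at 0.312 and 0.851. All 3 were highest in GOAT KO 1139. *Dnah5* (log2 fold change 0.88) was called higher without GOAT KO 1141 and without GOAT KO 1146 but stood at 0.36 without GOAT KO 1139, and *Pax8* without any 1 of the 4 WT libraries and without GOAT KO 1146. Without the filter on low counts both were called higher. The part of such tissue in the *Myh6* values was not tested. Of 9 tested ovary markers 0 were called (median 0.090), with *Inha* at 3431 and 3647 CPM and *Amh* at 393 and 340. *Fshr*, the receptor for follicle-stimulating hormone, stood at 36.0 and 49.8 CPM (log2 fold change 0.47). It was called higher without WT 1120 and GOAT KO 1139 (0.68), without either of them alone (0.56 and 0.59) and without GOAT KO 1140 (0.54). The steroidogenic genes *Star* and *Cyp17a1* stood at 18.3 and 67.9 CPM and at 130 and 208 CPM, with 3903 and 10042 counts in GOAT KO 1139 alone. *Star* was called higher without GOAT KO 1140, without GOAT KO 1141, without GOAT KO 1146 and without the filter, and *Cyp17a1* without WT 1120. Without GOAT KO 1139 the log2 fold change turned from 1.89 to -0.52 for *Star* and from 0.68 to -0.75 for *Cyp17a1*. These 3 ovary genes were chosen after their values were seen.

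Leukocyte markers held the single called gene of the lists. *Lyz2*, lysozyme of macrophages and neutrophils, was called lower in GOAT KO, at 58.9 CPM in WT and 41.0 in GOAT KO, with a log2 fold change of -0.52 (SE 0.13). Its adjusted p, from the quasi-likelihood test of edgeR with Benjamini-Hochberg adjustment over all genes, was 0.98. The call was lost without WT 1118, without WT 1121 and without GOAT KO 1146, where the log2 fold change was -0.48, -0.48 and -0.41. The median of the 7 tested leukocyte markers was -0.31. *Adgre1* stood at 6.61 CPM in WT and 5.15 in GOAT KO (log2 fold change -0.36) and *Cd68* at 11.4 and 9.20 (-0.31). *Csf1r* stood at 15.6 and 15.1 CPM. *Itgam*, the only tested marker of the list with a higher GOAT KO mean, stood at 1.36 and 1.66. The summed level of the list, most of it *Lyz2*, ran from 86.1 to 113 CPM in WT and from 65.9 to 88.3 in GOAT KO, and the part of such cells in the *Myh6* values was not tested.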

How the data were processed

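The authors sequenced 1 library per ovary as single reads of 50 bases, mapped the reads with TopHat2 2.0.14 against mouse build GRCm38 (mm10) and deposited whole-number counts of reads per gene symbol and, per library, counts of reads across each splice junction. How reads with several alignments were counted, and the strand, are not given in the sources used here. Assembled transcripts (StringTie 1.0.4) and the authors' own comparison table, which holds fold changes and p-values, were not used. The members and gene lists were chosen with earlier results of these data known.

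Counts were filtered with filterByExpr (minimum count 10), scaled with TMM and fitted with the quasi-likelihood test of edgeR 4.0.16 (R 4.3.3) on all 8 libraries, GOAT KO against WT, after the code was tested on simulated data. The study left out 1 library per group without naming it, so all were kept. A gene was called at p under 0.05 before adjustment with a log2 fold change beyond 0.5 in either direction. DESeq2 1.42.0, RLE factors, no filter, and the omission of libraries were alternatives. P-values measure the spread between single animals. CPM per kb used the joined annotated exons, and junction reads were matched to introns of GENCODE M21, whose sequences are shown. Correlations used log2 CPM with a prior count of 2. The text names the 6 members, called genes of the lists or else the 2 most abundant, *Mboat4*, and the 5 genes most correlated with *Myh6* and with *Myh11*; others named were chosen after their values were seen. Library depth was 16147216 to 19481798 counts, and no pair of libraries of a group agreed within sampling noise.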

Additional observations from a re-analysis of the deposited data

Results flagged for a closer look

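By the gap test of Dixon, 3 values stood apart from the rest of their group, out of 24 groups of 4 examined, and chance alone gives about 1 in 20. Library WT 1120 had 1.16 *Myh6* junction reads per 1000000 counts, where the other WT libraries had 3.90 to 4.37. Library GOAT KO 1146 had 606 CPM of *Myh11*, where the other GOAT KO libraries had 450 to 476. The same library had 164 *Myh11* junction reads per 1000000 counts, where the others had 121 to 128, so counts and spliced reads of *Myh11* were both high in it.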

How the results depend on the processing

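The log2 fold change of each member moved by less than the within-group SD of log2 CPM (0.67 for *Myh6*, 0.22 for *Myh7*, 0.065 for *Myh9*, 0.067 for *Myh10*, 0.17 for *Myh11* and 0.20 for *Myh14*) under RLE factors, no filter, DESeq2, the omission of WT 1120 and GOAT KO 1139, and the omission of any 1 library. Without any 1 library it ran from -2.25 to -1.79 for *Myh6*, from -0.65 to -0.42 for *Myh7*, from -0.043 to 0.011 for *Myh9*, from -0.078 to -0.0031 for *Myh10*, from -0.17 to -0.011 for *Myh11* and from -0.19 to -0.018 for *Myh14*. Leaving 1 library out of a group this small can move its mean by only a part of its SD. For the omissions the comparison with the SD was thus nearly fixed in advance, and nothing is read from it there. Over all genes 278 were called. Without the filter 691 of 27459 were called. Without any 1 library 231 to 437 were called, the most without WT 1120, and without WT 1120 and GOAT KO 1139 the count was 398. With DESeq2 it was 210. Of the genes of the lists 1 was called, 6 without the filter, 3 without WT 1120 and GOAT KO 1139 and 1 to 4 without any 1 library. The cause was not tested. Per kb of the longest coding transcript in place of all exons, the level was 77.5 for *Myh11*, 59.4 for *Myh9*, 43.4 for *Myh10* and 0.149 for *Myh7*, since the length is shorter, and the order of the 6 genes was as reported. No analysis paired by litter was possible because the litter of each animal is not given in the sources used here. Depth limits *Myh7* and *Myh14*, with 10 to 74 counts per library, and the GOAT KO junction reads of *Myh6*.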
